A study of Homo sapiens with 9 samples.

Results

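Methylation of lysine 4 on histone H3 (H3K4) is set, removed and bound by a limited group of proteins, and 38 genes for them were followed here among the 63657 genes of the deposited expression table. They were picked by symbol from what is known of their function, but with earlier results of these data known. Each symbol matched 1 Ensembl identifier. There are 21 writers, of which 10 are enzymes and 11 are subunits of writer complexes, 7 erasers and 10 readers. The enzymes include KMT2E, which is held to lack methyltransferase activity. The erasers include RCOR1 and PHF21A, which are subunits of the CoREST complex and not demethylases. KDM6A, which removes methyl groups from another lysine of H3 but is a subunit of the KMT2C and KMT2D complexes, was counted with the writers. PHF8 and PHF2, demethylases of other lysines that dock on methylated H3K4, were counted with the readers.

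All 9 samples of the series come from the cell line MDA-MB-231, an established model of triple-negative breast cancer. The results below use its 4 RNA-seq libraries. Replicates 1 and 2 of shLOXL2 came from cells infected with a short hairpin RNA against LOXL2, and replicates 1 and 2 of shControl from control cells of the same line. LOXL2 is a lysyl oxidase-like enzyme to which oxidation of H3K4 (H3K4ox), the mark studied in the series, has been attributed. The labels give neither the number of hairpins nor the origin of the replicates, and the spread behind each p-value may thus be technical, not that of separate cultures.

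H3K4 methylation marks active regulatory DNA, with trimethylation at promoters and monomethylation at enhancers. The KMT2 and SETD1 enzymes act in complexes built on a common core of WDR5, RBBP5, ASH2L and DPY30. KDM1 enzymes (LSD1 and LSD2) remove mono- and dimethylation by an amine oxidase reaction, and KDM5 enzymes remove di- and trimethylation. Readers such as the ING proteins, TAF3, BPTF and CHD1 bind the methylated lysine and bring acetyltransferases, deacetylases, the basal transcription machinery or remodellers to it.

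Levels are in FPKM, that is fragments corrected for transcript length and for the size of the library, so that genes can be set side by side. FPKM sums were 1330441 and 1369375 in the shLOXL2 libraries and 1244377 and 1221571 in the shControl libraries. The targeted gene LOXL2 (ENSG00000134013) stood at 15.2 and 12.1 FPKM in shLOXL2 cells, against 85.5 and 84.5 FPKM in shControl cells. All 8 markers listed for this mesenchymal line were expressed, with VIM at a mean of 2062 FPKM, while the receptor genes ESR1 and PGR stayed at or below 0.0822 FPKM in every library. ERBB2, listed with them, stood at a mean of 27.5 FPKM. CDH1, the epithelial cadherin on the same list, had 1.43 and 1.51 FPKM in shLOXL2 cells, against 0.339 and 0.837 FPKM in shControl cells, without overlap (limma adjusted p = 0.148). Of 8 fibroblast markers, 2 reached a mean of 1 FPKM (COL1A1 and PDGFRB), while DCN and POSTN were at or near 0. The level summed over all 8 was 12.3 and 10.2 FPKM in shLOXL2 and 5.96 and 7.39 FPKM in shControl cells. Of 8 haematopoietic markers 2 reached a mean of 1 FPKM (CD14 and LYZ), with CD3E at 0. The sum over all 8 of these ranged from 2.87 to 3.51 FPKM in shLOXL2 and from 3.42 to 3.82 FPKM in shControl. The part of such cells in the results was not tested, and in bulk RNA fewer cells of a type cannot be told apart from less RNA per cell.

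All 38 genes were expressed and tested. Between shLOXL2 and shControl cells, 3 of them rose (KDM5B, KDM5C and SETD7) and 3 fell (ASH2L, KDM1B and ING2) at a limma adjusted p below 0.05. These 6 are 15.8% of the 38, against 16.9% of all 16987 tested genes (8.35% higher and 8.54% lower). All 38 are protein-coding, and 20.8% of the 11216 protein-coding genes in the same fit passed. The share is near the first background and under the second, and is no result about the group as a whole. Of the writers 1 rose and 1 fell of 21, of the erasers 2 rose and 1 fell of 7, and of the readers 0 rose and 1 fell of 10. An unadjusted p below 0.05 was reached by 15 of the 38 genes (5 writers, 4 erasers and 6 readers) and by 6094 of the 16987. The median log2 change was -0.04 over the 38 genes, -0.04 over the writers, 0.17 over the erasers and -0.13 over the readers, beside -0.0041 over all tested genes. The erasers were mixed, with medians of -0.23 for the KDM1 enzymes, 0.21 for the CoREST subunits and 0.28 for the KDM5 enzymes. The groups did not overlap for 60.5% of the 38 genes, against 64.6% of all tested genes and 72.0% of the protein-coding ones. Both shLOXL2 libraries lay above both shControl libraries for 6 writers, 4 erasers and 1 reader (31.8% of all tested genes), and below them for 6 writers, 1 eraser and 5 readers (32.8% of all tested genes).

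With any 1 of the 4 libraries left out, which leaves 1 residual degree of freedom, no member passed. ASH2L had the lowest limma adjusted p of the 38 each time, at 0.108 without shLOXL2 replicate 1, 0.104 without shLOXL2 replicate 2, 0.165 without shControl replicate 1 and 0.168 without shControl replicate 2. Few genes passed in these fits at all, 1.73%, 1.69%, 1.14% and 1.44% of the 16987 in the same order, so the absence of members is near the background too. The log2 changes kept their size, from -0.71 to -0.63 for ASH2L, -0.42 to -0.35 for KDM1B, -0.45 to -0.31 for ING2, 0.43 to 0.56 for KDM5B, 0.26 to 0.30 for KDM5C and 0.197 to 0.24 for SETD7. When protein-coding genes alone were fitted, 5 members rose and 6 fell, 28.9% of the 38. The background there was 19.0% higher and 19.4% lower, 38.5% in all, of 11216 genes.

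**Figure D1:**
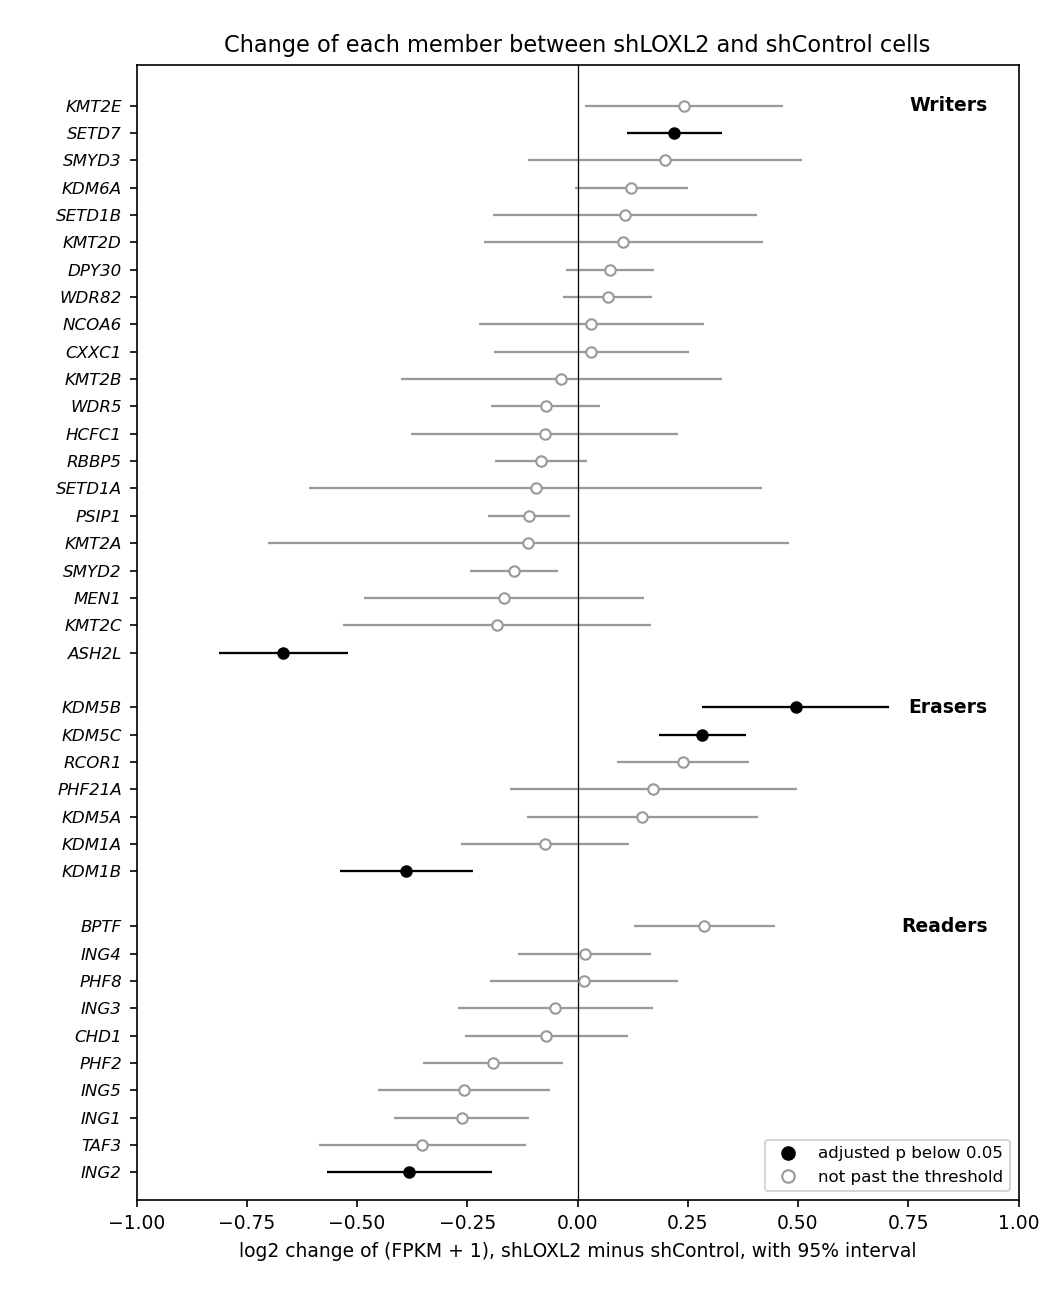
Log2 change of FPKM + 1 (x axis, shLOXL2 minus shControl) for each of the 38 genes with its 95% interval from limma, in the order writers, erasers, readers. The filled points are the 6 genes past the threshold, from ASH2L at -0.67 to KDM5B at 0.49.

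ASH2L, KDM1B and ING2 have the 3 lowest changes of the 38 and KDM5B the highest, and the bases before the starts of the changed genes are shown here to set these promoters side by side. RefSeq promoter entries (GRCh38.p14, from 250 bases before the start to 50 after it) were found for 31 of the 38 genes, and the sequences below are the 250 bases before the start, 5′ to 3′ on the strand of the gene. Only the first listed entry of each gene was kept, and whether these cells use that start was not tested. ASH2L is named only. Capitals mark matches on either strand to GGGCGG, the SP/KLF box, and matches that share a base run together.
KDM5B (chr1:202808422-202808671, minus strand): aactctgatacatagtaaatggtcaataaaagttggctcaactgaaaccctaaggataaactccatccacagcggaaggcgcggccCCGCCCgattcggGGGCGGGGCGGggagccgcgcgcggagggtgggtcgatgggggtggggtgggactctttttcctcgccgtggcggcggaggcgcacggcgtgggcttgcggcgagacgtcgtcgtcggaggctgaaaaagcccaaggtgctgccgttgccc
KDM5C (chrX:53225208-53225457, minus strand): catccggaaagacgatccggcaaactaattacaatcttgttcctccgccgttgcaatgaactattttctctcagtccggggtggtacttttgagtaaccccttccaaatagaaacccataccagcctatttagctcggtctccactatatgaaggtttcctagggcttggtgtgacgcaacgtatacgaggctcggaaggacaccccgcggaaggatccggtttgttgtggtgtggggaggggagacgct
SETD7 (chr4:139556220-139556469, minus strand): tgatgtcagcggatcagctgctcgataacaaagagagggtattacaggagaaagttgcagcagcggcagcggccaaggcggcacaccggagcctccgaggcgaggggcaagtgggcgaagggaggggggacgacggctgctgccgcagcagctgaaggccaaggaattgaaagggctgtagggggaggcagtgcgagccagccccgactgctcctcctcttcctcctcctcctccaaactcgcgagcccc
KDM1B (chr6:18155172-18155421, plus strand): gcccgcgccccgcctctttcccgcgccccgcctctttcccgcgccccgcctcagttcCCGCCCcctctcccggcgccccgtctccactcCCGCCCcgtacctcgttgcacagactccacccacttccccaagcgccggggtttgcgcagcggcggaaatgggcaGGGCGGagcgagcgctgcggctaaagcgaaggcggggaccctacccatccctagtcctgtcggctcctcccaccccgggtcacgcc
ING2 (chr4:183505848-183506097, plus strand): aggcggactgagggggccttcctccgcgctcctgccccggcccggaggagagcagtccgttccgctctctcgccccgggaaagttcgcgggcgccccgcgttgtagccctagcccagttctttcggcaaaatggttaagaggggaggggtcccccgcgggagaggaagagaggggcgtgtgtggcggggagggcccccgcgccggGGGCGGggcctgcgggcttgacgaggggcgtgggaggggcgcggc
KDM5B and KDM1B have 3 such matches each in these bases, ING2 has 1, and KDM5C and SETD7 have 0. KDM1B and ING2 each have another match in the 50 bases after the start, where KDM5C has a match to the YY1 motif. A link between these matches and the direction of change was not tested.

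The box GGGCGG was found in 24 of the 31 promoters (77.4%), against 58.5% of 15843 promoters of protein-coding genes and 44.6% of all 27305 promoters. The YY1 motif was found in 3 promoters, those of CXXC1, KMT2B and KDM5C (9.68%), against 1.37% of protein-coding promoters and 0.916% of all. The NF-Y box CCAAT was in 7 of 31 promoters (22.6%, against 36.4% of protein-coding and 35.7% of all promoters), and the ETS motif CCGGAAGT in 2, those of KDM5A and ING4 (6.45%, against 6.19% and 4.44%). The letters TATAAA (9.63% of protein-coding and 12.0% of all promoters), the NRF1 motif (1.75% and 1.36%) and the E2F forms TTTCGCGC (0.814% and 0.546%) and TTTGGCGC (0.890% and 0.659%) were in 0 of the 31. Both strands were searched, and a base could belong to matches of more than 1 motif. The background promoters were not limited to genes expressed in these cells, whereas all members were expressed. The 31 promoters were rich in G and C, with a median of 68.0% and 34 CpG dinucleotides, against 62.7% and 22 in protein-coding promoters. PHF8 stood lowest with 44.0% and 1 CpG, and KMT2C highest with 88.7% and 56 CpG.

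The level of the 38 genes ran from a mean of 1.80 FPKM for KMT2B to 86.9 FPKM for DPY30, with a median of 17.3 FPKM, beside 12.7 FPKM over all tested genes and 18.8 FPKM over the protein-coding ones. The 6 enzymes of the KMT2A to KMT2D and SETD1 type had a median of 4.26 FPKM, against 22.0 FPKM for the 4 shared core subunits, and each of those subunits had a higher mean than each of the 6 enzymes. SETD1A and SETD1B, at means of 3.28 and 3.21 FPKM, did not differ beyond the spread of their libraries. KDM1A was second in the whole group at 71.7 FPKM, above KDM5C at 44.9, CHD1 at 44.1, PSIP1 at 42.7 and WDR82 at 41.9 FPKM.

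**Figure D2:**
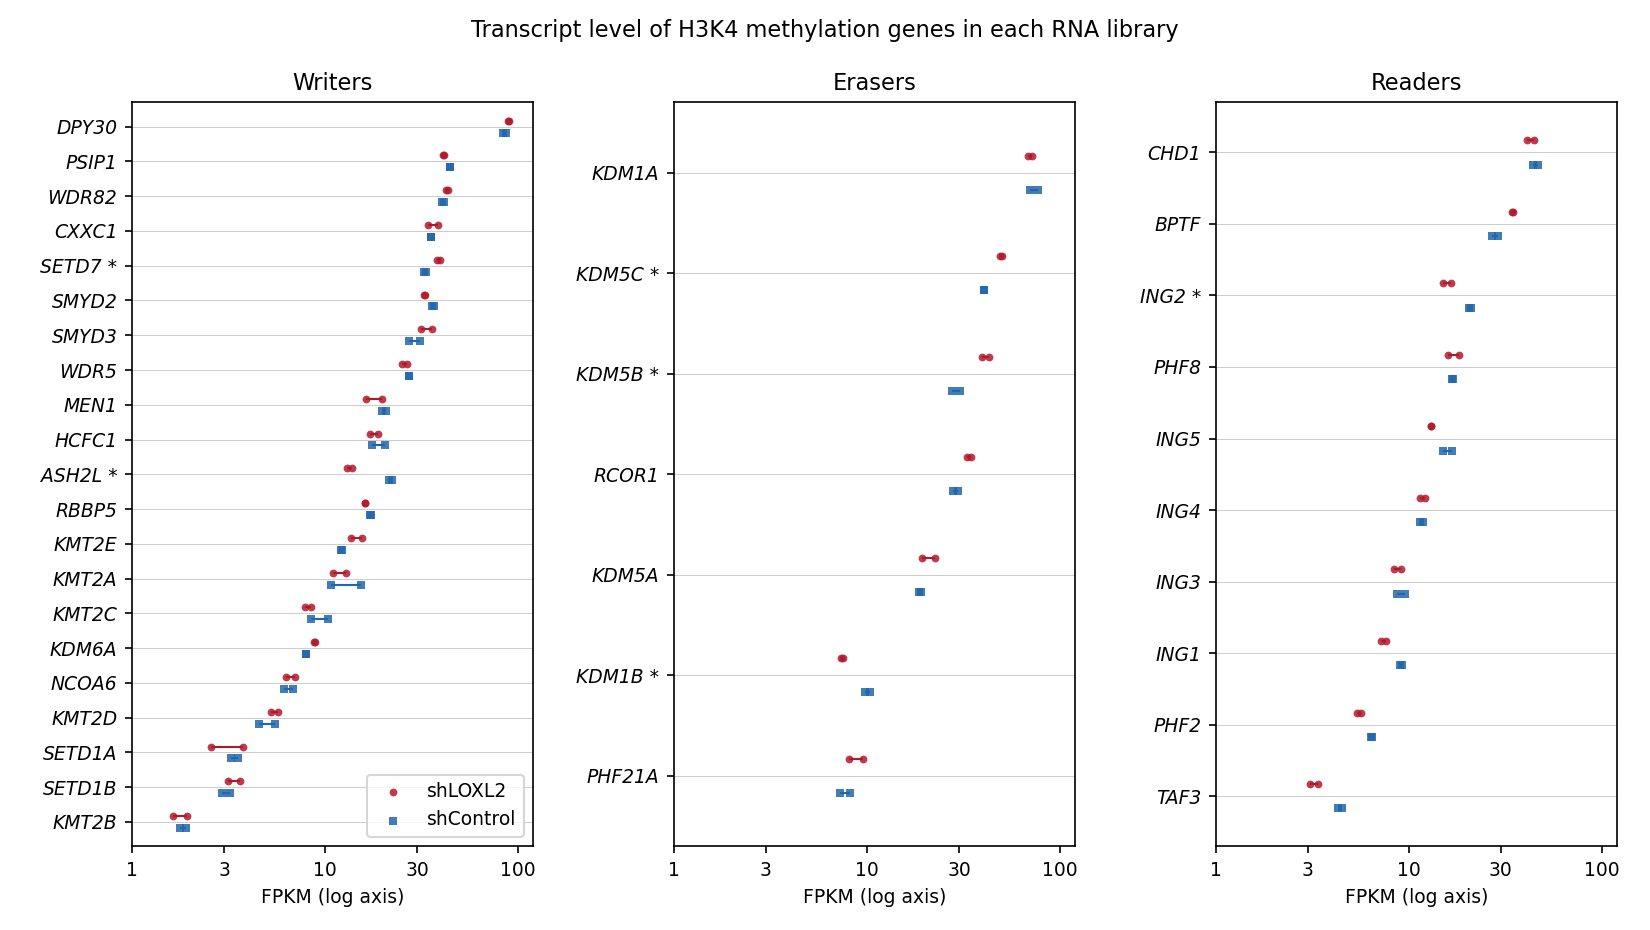
Level of each gene in FPKM (log x axis) in the 2 shLOXL2 libraries (circles) and the 2 shControl libraries (squares), with a line joining the libraries of a group and an asterisk at the 6 genes past the threshold. The writers span DPY30 at the top to KMT2B at the bottom, and KMT2A shows the wide spread of its shControl libraries.

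Among the writers, the largest enzymes showed no separation of the groups. KMT2A, the founder of the family and a fusion partner in leukaemia, stood at 11.03 and 12.8 FPKM in shLOXL2 cells, against 15.4 and 10.8 FPKM in shControl cells. KMT2B, its paralogue, stood at 1.92 and 1.62 FPKM in shLOXL2 and 1.76 and 1.91 FPKM in shControl cells. The shControl libraries of KMT2A lie on either side of the shLOXL2 ones, and its 95% interval ran from -0.70 to 0.48 on the log2 scale. KMT2C, an enhancer monomethylase, had 8.44 and 7.83 FPKM in shLOXL2 and 10.4 and 8.42 FPKM in shControl cells. KMT2D, the other enhancer monomethylase, had 5.67 and 5.24 FPKM in shLOXL2 and 5.49 and 4.56 FPKM in shControl cells. For both, the groups overlapped, with limma adjusted p-values of 0.361 and 0.535. SETD1A, a main trimethylase of promoters, had 3.75 and 2.58 FPKM in shLOXL2 and 3.54 and 3.27 FPKM in shControl cells. SETD1B had 3.61 and 3.14 FPKM in shLOXL2 and 3.20 and 2.91 FPKM in shControl cells. Over these 6 genes 0 passed limma's threshold and 0 had an unadjusted p below 0.05, but intervals such as that of SETD1A, from -0.61 to 0.42, cover changes as large as those of most genes that passed.

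SETD7, a monomethylase of H3K4 and of non-histone proteins, had 37.98 and 39.2 FPKM in shLOXL2 cells, against 33.3 and 32.7 FPKM in shControl cells. The groups did not overlap, and SETD7 rose to 117% of the shControl level (38.6 ± 0.873 and 33.0 ± 0.468 FPKM, SD, n = 2 each). Its log2 change was 0.22 ± 0.04 (SE, limma adjusted p = 0.0423). SMYD3, for which H3K4 methylation has been described, had 31.3 and 36.0 FPKM in shLOXL2 and 31.0 and 27.3 FPKM in shControl cells. SMYD2, which methylates H3K36 and other proteins, had 32.6 and 33.0 FPKM in shLOXL2 and 35.9 and 36.8 FPKM in shControl cells. KMT2E, a family member that binds methylated H3K4 and is held to lack methyltransferase activity, had 15.6 and 13.7 FPKM in shLOXL2 and 12.3 and 12.1 FPKM in shControl cells. The groups did not overlap for these 3, but none passed limma's threshold (adjusted p = 0.280 for SMYD3, 0.0761 for SMYD2 and 0.124 for KMT2E), while SMYD2 and KMT2E had an unadjusted p below 0.05. Summed, SMYD2 and SMYD3 came to 66.5 ± 3.66 FPKM in shLOXL2 and 65.5 ± 2.002 FPKM in shControl cells (SD, n = 2 each), and the share of SMYD3 in that sum was 49.0% and 52.1% in shLOXL2 and 46.3% and 42.7% in shControl cells.

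Of the shared core, ASH2L carried the largest change of all 38 genes. ASH2L (ENSG00000129691), which stimulates the KMT2 enzymes together with RBBP5 and anchors DPY30, had 12.997 and 13.8 FPKM in shLOXL2 cells, against 21.5 and 22.2 FPKM in shControl cells. Both shLOXL2 libraries lay well under both shControl libraries, and ASH2L fell to 61.3% of the shControl level (13.4 ± 0.583 and 21.9 ± 0.523 FPKM, SD, n = 2 each). Its log2 change was -0.67 ± 0.05 (SE, limma adjusted p = 0.0148). The other core subunits stayed closer to their shControl levels. WDR5, the scaffold that holds the enzyme, had 25.1 and 26.4 FPKM in shLOXL2 and 27.1 and 27.2 FPKM in shControl cells. RBBP5 had 16.1 FPKM in both shLOXL2 libraries and 17.2 and 17.0 FPKM in shControl cells. DPY30, the small subunit that binds through ASH2L, had 88.8 and 89.5 FPKM in shLOXL2 and 83.2 and 86.2 FPKM in shControl cells. Groups did not overlap for these 3 either, yet none passed limma's threshold (adjusted p = 0.317, 0.199 and 0.228), and their 95% intervals all lay between -0.20 and 0.17 on the log2 scale.

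The ratios within the core are given for each library, with no test. The level of ASH2L over that of RBBP5 was 0.809 and 0.856 in shLOXL2 cells, against 1.25 and 1.31 in shControl cells. ASH2L over WDR5 was 0.517 and 0.523 in shLOXL2 and 0.794 and 0.817 in shControl cells. RBBP5 over WDR5, which does not involve ASH2L, was 0.639 and 0.611 in shLOXL2 and 0.636 and 0.626 in shControl cells. In shLOXL2 libraries ASH2L was thus the least abundant transcript of the core, and in shControl libraries RBBP5 was. ASH2L made up 9.09% and 9.47% of the summed core transcripts in shLOXL2 cells and 14.4% and 14.6% in shControl cells. These are transcript levels, and protein was not measured here.

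The subunits that are particular to certain complexes held 0 genes past the threshold of 7. CXXC1, the CpG-binding subunit of the SETD1 complexes, had 38.7 and 34.0 FPKM in shLOXL2 and 35.5 and 35.4 FPKM in shControl cells. WDR82, which links the same complexes to RNA polymerase II, had 43.4 and 42.5 FPKM in shLOXL2 and 40.4 and 41.4 FPKM in shControl cells. MEN1, the menin subunit of the KMT2A and KMT2B complexes, had 19.7 and 16.3 FPKM in shLOXL2 and 20.7 and 19.8 FPKM in shControl cells. PSIP1, the chromatin tether that menin binds, had 41.5 and 40.7 FPKM in shLOXL2 and 44.6 and 44.2 FPKM in shControl cells. PSIP1 was the 1 gene of the 7 with an unadjusted p below 0.05, and its groups did not overlap (limma adjusted p = 0.107). HCFC1, a host cell factor found in SETD1 and KMT2 complexes, had 18.7 and 17.1 FPKM in shLOXL2 and 20.5 and 17.4 FPKM in shControl cells. NCOA6, of the KMT2C and KMT2D complexes, had 7.02 and 6.31 FPKM in shLOXL2 and 6.84 and 6.15 FPKM in shControl cells. KDM6A, of the same complexes, had 8.73 and 8.86 FPKM in shLOXL2 and 8.01 and 7.99 FPKM in shControl cells, without overlap (limma adjusted p = 0.150).

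Of the erasers, both changes upward were in the KDM5 family. KDM5B (ENSG00000117139), a demethylase of trimethylated H3K4 known as PLU-1 in breast cancer, had 39.5 and 42.8 FPKM in shLOXL2 cells, against 30.3 and 27.6 FPKM in shControl cells. The groups did not overlap, and KDM5B rose to 142% of the shControl level (41.2 ± 2.32 and 28.9 ± 1.89 FPKM, SD, n = 2 each). Its log2 change was 0.49 ± 0.07 (SE, limma adjusted p = 0.0343). KDM5C (ENSG00000126012), the X-linked member, had 50.1 and 48.7 FPKM in shLOXL2 cells, against 40.6 and 40.2 FPKM in shControl cells. KDM5C rose to 122% (49.4 ± 0.946 and 40.4 ± 0.264 FPKM, SD, n = 2 each), and its log2 change was 0.28 ± 0.03 (SE, limma adjusted p = 0.0257). The libraries of each group lay close together and the groups apart. KDM5A, first found as a partner of the retinoblastoma protein, had 22.6 and 19.3 FPKM in shLOXL2 and 19.0 and 18.6 FPKM in shControl cells. Its groups did not overlap but it did not pass (limma adjusted p = 0.332), with a 95% interval from -0.12 to 0.41 that covers the change of KDM5C.

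Summed over KDM5A, KDM5B and KDM5C, the family came to 112 and 111 FPKM in shLOXL2 cells, against 89.9 and 86.4 FPKM in shControl cells. KDM5C was the most abundant of the family in every library, with 44.6% and 43.9% of the sum in shLOXL2 and 45.2% and 46.6% in shControl cells. KDM5B held 35.2% and 38.6% in shLOXL2 and 33.7% and 32.0% in shControl cells. KDM5A held the rest, at 20.1% and 17.4% in shLOXL2 and 21.1% and 21.5% in shControl cells.

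Of the KDM1 enzymes, KDM1B passed. KDM1B (ENSG00000165097), LSD2, which acts on H3K4 in gene bodies and in the oocyte, had 7.39 and 7.51 FPKM in shLOXL2 cells, against 10.3 and 9.78 FPKM in shControl cells. The groups did not overlap, and KDM1B fell to 74.1% of the shControl level (7.45 ± 0.0878 and 10.1 ± 0.391 FPKM, SD, n = 2 each). Its log2 change was -0.39 ± 0.05 (SE, limma adjusted p = 0.0295). KDM1A, LSD1, the main enzyme of the pair, had 68.0 and 71.7 FPKM in shLOXL2 and 77.0 and 70.2 FPKM in shControl cells. The groups of KDM1A overlapped (limma adjusted p = 0.465), and KDM1A outweighed KDM1B by 9.20 and 9.54 times in shLOXL2 and by 7.45 and 7.18 times in shControl cells. RCOR1, the CoREST scaffold that lets KDM1A act on nucleosomes, had 34.8 and 33.2 FPKM in shLOXL2 and 27.8 and 29.5 FPKM in shControl cells. RCOR1 did not overlap between the groups and did not pass (log2 0.24 ± 0.05, SE, limma adjusted p = 0.0632). PHF21A, a CoREST subunit that binds H3K4 when it carries no methyl group, had 9.60 and 8.11 FPKM in shLOXL2 and 8.19 and 7.27 FPKM in shControl cells, with overlap.

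**Figure D3:**
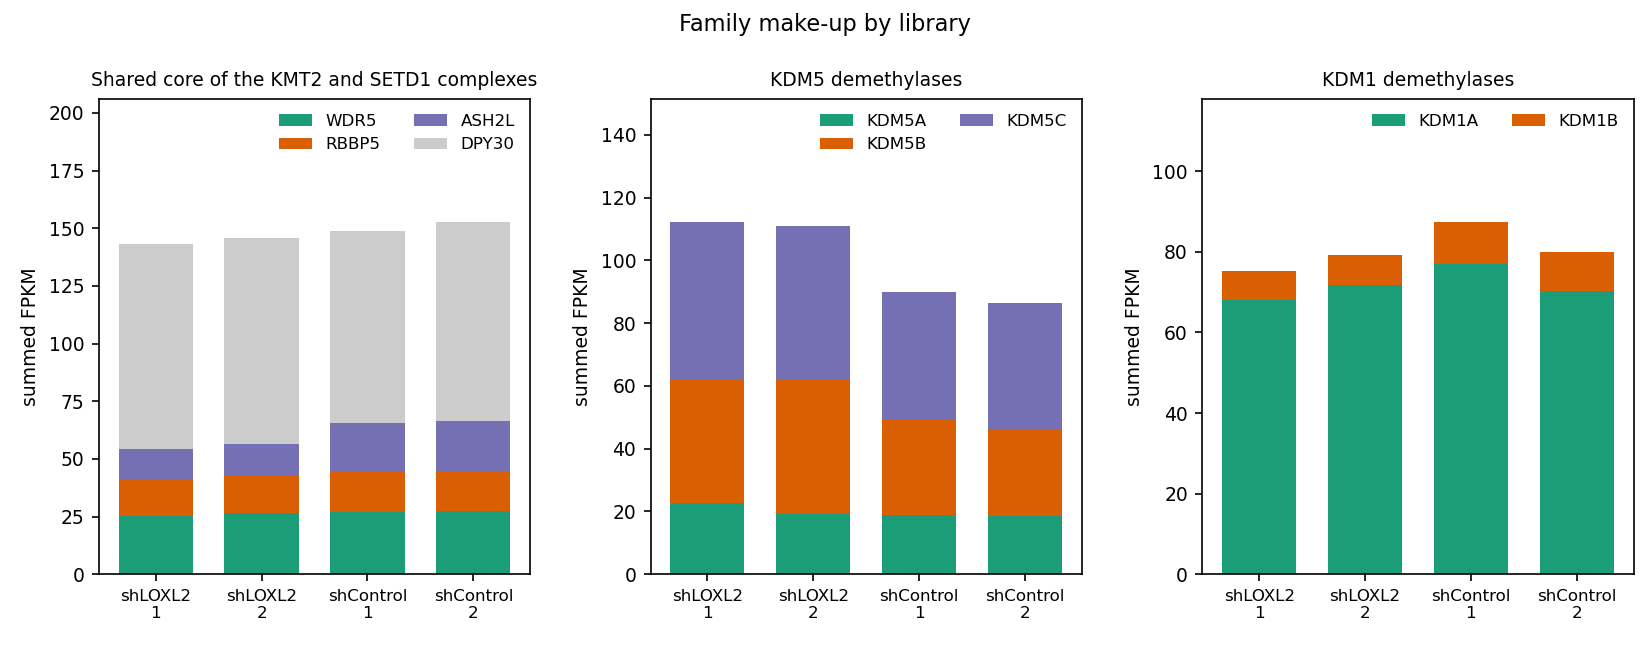
Summed FPKM (y axis, from 0) of the shared core subunits, the KDM5 demethylases and the KDM1 demethylases in the shLOXL2 and shControl libraries, stacked by gene. The ASH2L segment is thinner in both shLOXL2 libraries, and the KDM5 bars reach 112 and 111 FPKM there, against 89.9 and 86.4 FPKM in shControl.

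Of the 10 readers 1 passed the test. ING2 (ENSG00000168556), a reader of trimethylated H3K4 in SIN3 deacetylase complexes, had 16.6 and 15.0 FPKM in shLOXL2 cells, against 21.1 and 20.6 FPKM in shControl cells. The groups did not overlap, and ING2 fell to 75.8% of the shControl level (15.8 ± 1.13 and 20.9 ± 0.330 FPKM, SD, n = 2 each). Its log2 change was -0.38 ± 0.06 (SE, limma adjusted p = 0.0424). ING1, its paralogue in the same kind of complex, had 7.23 and 7.65 FPKM in shLOXL2 and 9.22 and 9.03 FPKM in shControl cells. ING5, of acetyltransferase complexes, had 13.1 FPKM in both shLOXL2 libraries and 16.7 and 15.0 FPKM in shControl cells. ING1 and ING5 did not overlap between the groups and missed the threshold (limma adjusted p = 0.0563 and 0.0883). ING4, the paralogue of ING5, had 12.1 and 11.5 FPKM in shLOXL2 and 11.9 and 11.4 FPKM in shControl cells, and ING3, of the TIP60 complex, had 8.40 and 9.09 FPKM in shLOXL2 and 9.54 and 8.65 FPKM in shControl cells. The groups of both overlapped. ING1 and ING2 together came to 23.8 and 22.7 FPKM in shLOXL2 cells, against 30.3 and 29.7 FPKM in shControl cells, with ING2 at 69.7% and 66.2% of that sum in shLOXL2 and at 69.6% in both shControl libraries.

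Of the other readers, BPTF stood nearest to the threshold. BPTF, the NURF remodeller subunit that binds trimethylated H3K4, had 34.2 and 34.6 FPKM in shLOXL2 cells, against 29.2 and 26.9 FPKM in shControl cells. Its groups did not overlap, and its log2 change was 0.29 ± 0.05 (SE, limma adjusted p = 0.0514). TAF3, which ties the TFIID complex to trimethylated H3K4, had 3.39 and 3.09 FPKM in shLOXL2 and 4.29 and 4.53 FPKM in shControl cells. PHF2 had 5.63 and 5.40 FPKM in shLOXL2 and 6.39 and 6.49 FPKM in shControl cells. Neither overlapped between the groups, and neither passed (limma adjusted p = 0.0700 for TAF3 and 0.102 for PHF2). CHD1, a remodeller with chromodomains for methylated H3K4, had 44.8 and 41.2 FPKM in shLOXL2 and 46.5 and 43.9 FPKM in shControl cells. PHF8, an X-linked demethylase, had 16.1 and 18.1 FPKM in shLOXL2 and 17.0 and 16.8 FPKM in shControl cells. For CHD1 and PHF8 the groups overlapped.

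**Figure D4:**
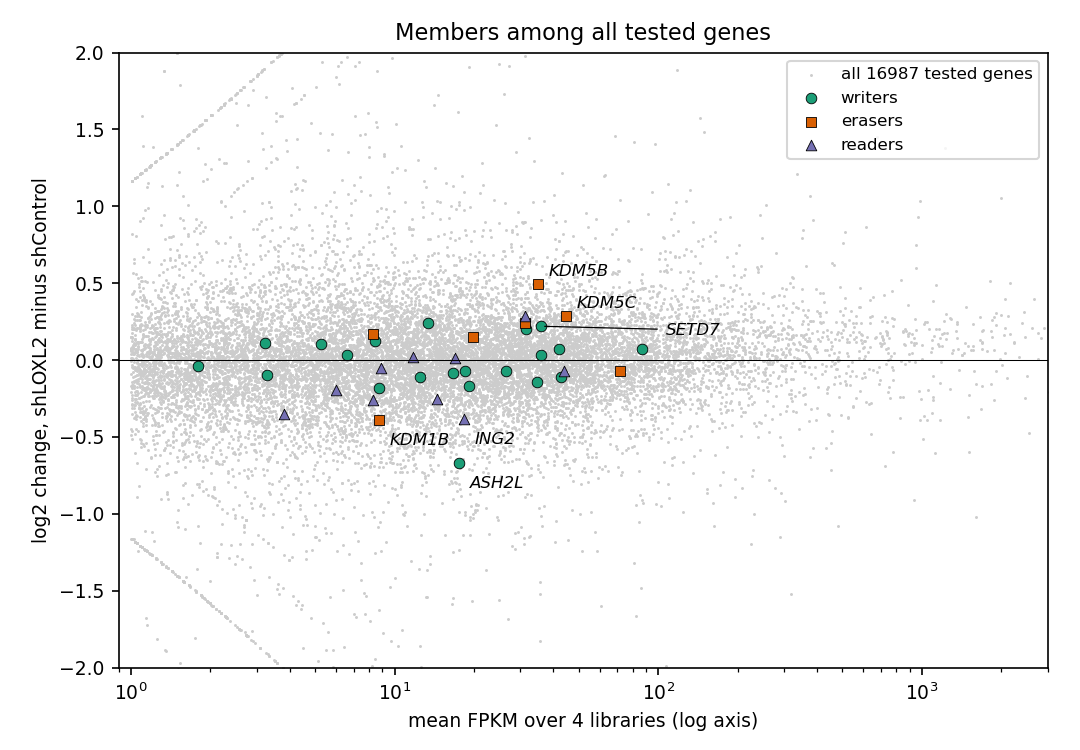
Mean FPKM over the 4 libraries (log x axis) against the log2 change (y axis, shLOXL2 minus shControl) for all 16987 tested genes in grey and the 38 members in colour by class, with the 6 that passed named. The members lie within the cloud of all genes, and 359 genes lie outside the axes.

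Of a wider list of 40 symbols tied to histone lysine methylation or to the same complexes, 37 were in the table and 34 were tested. Of these 2 rose and 1 fell (8.82%, against 16.9% of all tested genes and 20.8% of the protein-coding ones), with a median log2 change of 0.02. HDAC1, the deacetylase that sits with KDM1A and RCOR1 in CoREST, had 185 and 188 FPKM in shLOXL2 cells, against 110 and 106 FPKM in shControl cells. HDAC1 rose without overlap, by 0.79 ± 0.03 on the log2 scale (SE, limma adjusted p = 0.0124). HDAC2, its paralogue there, had 163 and 171 FPKM in shLOXL2 and 147 and 150.2 FPKM in shControl cells and did not pass (limma adjusted p = 0.0751). PHF23, which binds trimethylated H3K4, rose (log2 0.23 ± 0.03, SE, limma adjusted p = 0.0290). MSH6, a mismatch repair protein that reads methylated H3K36, fell (log2 -0.45 ± 0.03, SE, limma adjusted p = 0.0131).

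Some of these levels are uncertain because other loci share sequence or position with the gene. BPTFP1, a pseudogene of BPTF, had 3.72 and 3.23 FPKM in shLOXL2 cells, against 1.73 and 1.57 FPKM in shControl cells, and was called higher (limma adjusted p = 0.0342). PSIP1P1, WDR82P1 and WDR82P2 had means of 12.5, 11.2 and 5.98 FPKM and were not called. The 3 ASH2L pseudogenes in the table had means of at most 0.0667 FPKM. WDR5B, the intronless relative of WDR5, had a mean of 1.60 FPKM and KMT2E-AS1, the antisense gene at KMT2E, 1.58 FPKM, neither past the threshold. In RefSeq (GRCh38.p14) SEPTIN7P6 lies within KMT2C, and it was called lower (limma adjusted p = 0.0115), with 9.36 and 9.61 FPKM in shLOXL2 and 24.2 and 23.6 FPKM in shControl cells. Protein-coding genes on the opposite strand overlap KMT2B (IGFLR1), SETD1B (RHOF), KMT2E (SRPK2), PSIP1 (SNAPC3), KDM1A (LUZP1) and ING1 (CARS2). The strand setting of the counting is not known. Of the 6 genes that passed, none overlaps a protein-coding gene there. Pseudogenes overlap KDM5B (COX7CP2 and SLC25A39P1), SETD7 (FTH1P24) and ASH2L (RNU6-988P), and microRNA genes overlap KDM5C (MIR6894 and MIR6895). COX7CP2 had 1.22 and 1.93 FPKM in shLOXL2 and 0 and 3.37 FPKM in shControl cells (limma adjusted p = 0.835). The others were not tested. KDM1B starts back to back with TPMT, with 253 bases between the starts, and TPMT had 4.97 and 4.79 FPKM in shLOXL2 and 4.83 and 4.73 FPKM in shControl cells, a log2 change of 0.02 (limma adjusted p = 0.806).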

How the data were processed

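RNA was measured in 4 libraries, for which the authors deposited 1 table of gene levels in FPKM; per the submitters' processing notes Bowtie, Cufflinks and GRCh37 were used, without versions. Annotation and strand setting are not given in the sources used here. H3K4ox and ATAC peak lists were not used here, since no GRCh37 annotation was at hand to place peaks at genes. Symbols were matched for 39694 of 63657 identifiers. FPKM carries no read count. Among values under 1 FPKM, the commonest ratio of replicate 1 to replicate 2 was 1.05 in shLOXL2 and 0.99 in shControl. These ratios were shared by 8.31% and 8.42% of such genes. Read counts were not derived from them, and depth is unknown.

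A mean of 1 FPKM or more over the 4 libraries was reached by 16987 genes. Their log2(FPKM + 1) values were fitted with limma 3.58.1 (R 4.3.3), whose two-sided moderated test used a variance prior with an intensity trend. P-values were adjusted by Benjamini-Hochberg over all 16987 genes, with a threshold of 0.05. Changes are shLOXL2 minus shControl, and this scale understates those of low genes. A check on simulated input with known changes was set on the median error of the log2 change, not on which genes were called. Alternatives covered the pseudocount, the filter, scaling, the variance prior, protein-coding genes alone, a replicate block and each library left out. The rule for named genes took all 38 members, LOXL2, genes of a wider H3K4 list past the threshold, and pseudogenes and antisense genes named after members. HDAC2 and the overlapping or divergent neighbours named beside members were added after their values were seen. A few marker results are not reported here. Members, classes and lists were chosen with earlier results of these data known. Promoters came from RefSeq (GRCh38.p14). Other versions were Python 3.11.15, pandas 2.3.3, numpy 2.4.6 and matplotlib 3.10.9.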

Additional observations from a re-analysis of the deposited data

How the results depend on the processing

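With 1 library left out, the counts over all genes ran from 18 to 220 higher and from 70 to 217 lower in shLOXL2 cells, and those of the members and of writers, erasers and readers were 0 in both directions, with 6 to 12 members at an unadjusted p below 0.05. With the replicate number as a replicate block, which also leaves 1 residual degree of freedom, limma called 0 of all genes and 0 members higher or lower (0 writers, erasers and readers), with 5519 genes and 13 members at an unadjusted p below 0.05. The labels do not say whether same-numbered libraries belong together. Over the tested genes, deviations of same-numbered libraries correlated at -0.0013, a value that cannot settle whether they were paired. Without a filter on low values 601 genes rose and 542 fell, 3.16% of 36224 tested. Of the members only KDM5C rose and only ASH2L fell (5.26% of 38). That is 1 eraser higher, 1 writer lower and 0 writers higher, erasers lower or readers lower. Without a trend in the variance prior 926 genes rose and 1022 fell, 11.5% of 16987. Of the members 1 rose (an eraser, KDM5C) with 0 writers, and 2 fell (ASH2L and KDM1B) with 0 readers, 7.89% of 38. At a filter of 5 FPKM 5 of 34 members tested rose, adding RCOR1 and 1 reader (BPTF), and 3 fell, against 1560 higher and 1524 lower of 12023 genes (25.7% in all). With protein-coding genes alone 2136 genes rose and 2178 fell (38.5%), with 5 members higher (1 reader) and 6 lower (4 readers), 28.9% of the members. With a pseudocount of 0.1 FPKM 4 members rose and 4 fell, against 9.04% higher and 9.32% lower of all genes, with 1 reader higher (BPTF) and 2 lower (ING1 and ING2). BPTF also gave 1 reader higher with quantile normalization, upper-quartile scaling and a robust prior. There 18.4% of the members were called each time, against 17.1%, 16.6% and 18% of all genes in the same order. Over all 14 alternatives the adjusted p of ASH2L ran from 0.000741 to 0.168. Scaling moved the median of all genes by less than 0.01 on the log2 scale. No member that passed changed sign, but their groups did not overlap, so leaving 1 library out could not have changed it. Of the members that did not pass, 10 changed sign with 1 library left out, where the log2 change ran from -0.35 to 0.13 for KMT2A, -0.11 to 0.041 for KMT2B, -0.0079 to 0.22 for KMT2D, -0.298 to 0.11 for SETD1A, -0.059 to 0.12 for CXXC1, -0.035 to 0.099 for NCOA6, -0.19 to 0.037 for HCFC1, -0.11 to 0.013 for ING3, -0.0198 to 0.052 for ING4 and -0.067 to 0.098 for PHF8. With quantile normalization that of KMT2B was 0.0081. The cause of these differences was not tested. FPKM carries no depth, so no counting interval can be given, and 4 libraries limit the precision.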
